A study of Mus musculus with 18 samples.

Results

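Microglia, the resident macrophages of the brain, depend on a small set of outside signals and transcription factors for their survival and identity. Here 9 such genes were examined in the caudal corpus callosum, a white matter tract, of mice fed the demyelinating copper chelator cuprizone (CPZ): the ligands Csf1, Il34 and Tgfb1, the receptors Csf1r, Tgfbr1 and Tgfbr2, and the transcription factors Spi1, Irf8 and Runx1. Each gene was read from all probe sets annotated to its symbol or a synonym and to no other gene (Spi1 is annotated as Sfpi1), and its value in an array was the median log2 value of those probe sets. This took 105 probe sets for 9 of the 20406 genes on the array, and all 9 genes were among the 16324 that passed a filter on low values.

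The study set mice lacking Trem2, a lipid-sensing receptor of microglia (KO), against wild type mice (WT). All were C57BL/6 and all received chow with 0.2% CPZ, so no CPZ-free tissue was analysed here. There were 6 KO and 5 WT arrays at 12 weeks and 3 KO and 4 WT arrays at 6 weeks. The labels use these weeks for the age in one field, while the protocol gives a range of ages and several lengths of feeding, so whether the stage is an age or a time on CPZ is not settled and it is called 12 or 6 weeks below. The labels name no cell type for the Trem2 deletion. They do not say whether each array is a separate animal, and a p-value therefore covers only sample-to-sample spread, which may be technical. By Xist and Y-linked genes, each group held both sexes (3 female and 3 male KO and 2 female and 3 male WT arrays at 12 weeks, 1 female and 2 male KO and 2 female and 2 male WT arrays at 6 weeks).

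CSF1R is a receptor tyrosine kinase that keeps microglia alive. It has a pair of ligands, CSF1, made largely by glia, and IL-34, made largely by neurons. TGF-beta 1 acts through a complex of TGFBR2, which binds the ligand, and TGFBR1, which passes the signal to SMAD proteins, and in microglia it maintains the resting gene programme. PU.1, the product of Spi1, is the master factor of the myeloid lineage, IRF8 partners with it, and RUNX1 acts with both in blood development and in early microglia.

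RefSeq windows of the 250 bases before the gene start (GRCm38.p6) were searched for 6 members, Csf1, Tgfb1, Tgfbr1, Tgfbr2, Irf8 and Runx1. No window was at hand for Il34 and Spi1, and Csf1r was left out of the search. Both strands were searched for a PU.1 core (GAGGAA), a SMAD box (CAGAC), a RUNX core (TGTGGT) and the GAS motif of STAT factors (TTCNNNGAA). The 2 windows with a match are printed, one from a gene with a positive KO minus WT difference and one from a gene with a difference near 0, with the matches in capitals.
Tgfbr2 (chr9:116175364-116175613, minus strand): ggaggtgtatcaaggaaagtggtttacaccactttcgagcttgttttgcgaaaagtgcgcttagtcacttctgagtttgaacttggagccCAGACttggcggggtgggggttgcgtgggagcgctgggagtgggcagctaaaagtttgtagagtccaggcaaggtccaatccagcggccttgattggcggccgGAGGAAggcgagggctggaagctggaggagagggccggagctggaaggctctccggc
Irf8 (chr8:120736108-120736357, plus strand): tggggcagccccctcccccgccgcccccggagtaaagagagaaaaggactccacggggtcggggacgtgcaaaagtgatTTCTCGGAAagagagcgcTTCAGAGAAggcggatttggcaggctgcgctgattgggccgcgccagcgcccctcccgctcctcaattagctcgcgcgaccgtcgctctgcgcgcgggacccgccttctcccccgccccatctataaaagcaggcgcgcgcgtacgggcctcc
The Tgfbr2 window held the PU.1 core 57 bases and the SMAD box 160 bases before the start. The Irf8 window held GAS motifs 171 and 153 bases before the start. Among all 32851 windows of this length, 23.3% held the PU.1 core, 42.2% the SMAD box, 14.0% the RUNX core and 7.02% the GAS motif. No match overlapped another. A match describes letters in the window, not binding.

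The knockout was checked first. Trem2 ranged over 4.79 to 5.59 (median 5.33) in KO arrays of 12 weeks, against 6.83, 6.96, 7.29, 7.86 and 7.84 in WT arrays. At 6 weeks it was 6.05, 5.94 and 5.42 in KO arrays, against 7.21, 7.09, 8.42 and 6.44 in WT arrays. Every KO array lay below every WT array of its stage. The KO minus WT difference was -2.09 ± 0.28 at 12 weeks (log2 ± SE, limma adjusted p = 0.00252) and -1.49 ± 0.36 at 6 weeks (adjusted p = 0.248), and it was -1.79 ± 0.23 averaged over both stages (adjusted p = 3.08e-04). A pair of arrays stood apart in the members' values. KO replicate 2 and WT replicate 3 of 6 weeks were each the highest of their group in Csf1r, Tgfb1, Tgfbr1, Spi1, Irf8 and Runx1, and results are given below with and without them where that changes a call. Over all genes tested another pair stood out. The lowest limma array weights were those of KO replicate 2 (0.446) and WT replicate 4 (0.503) of 6 weeks, with WT replicate 3 at 0.828.

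No member passed the test (limma, Benjamini-Hochberg adjusted p under 0.05 over all 16324 genes) in any of the 6 comparisons. The members nearest to it were Csf1r, the receptor, and Spi1, the lineage factor, both higher in KO tissue, while Irf8 and Il34 differed by under 0.2 (log2). At 12 weeks 0 of 9 members passed, where 0.441% of all genes did (60 higher and 12 lower in KO), and 3 members (Csf1r, Tgfbr2 and Spi1) had an unadjusted p under 0.05, where 11.1% of genes did. At 6 weeks 0 of 9 passed, where 0.0429% of genes did, and 1 member, Csf1r, had an unadjusted p under 0.05, where 5.44% of genes did. Averaged over both stages 0 of 9 passed, where 0.674% of genes did, and 4 members (Csf1r, Tgfb1, Tgfbr2 and Spi1) had an unadjusted p under 0.05, where 9.15% of genes did. The median KO minus WT difference of the 9 members was 0.43 at 12 weeks, 0.17 at 6 weeks and 0.30 averaged, where the median over all genes tested was 0.02 at 12 weeks and within 0.01 of 0 in the others.

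**Figure D1:**
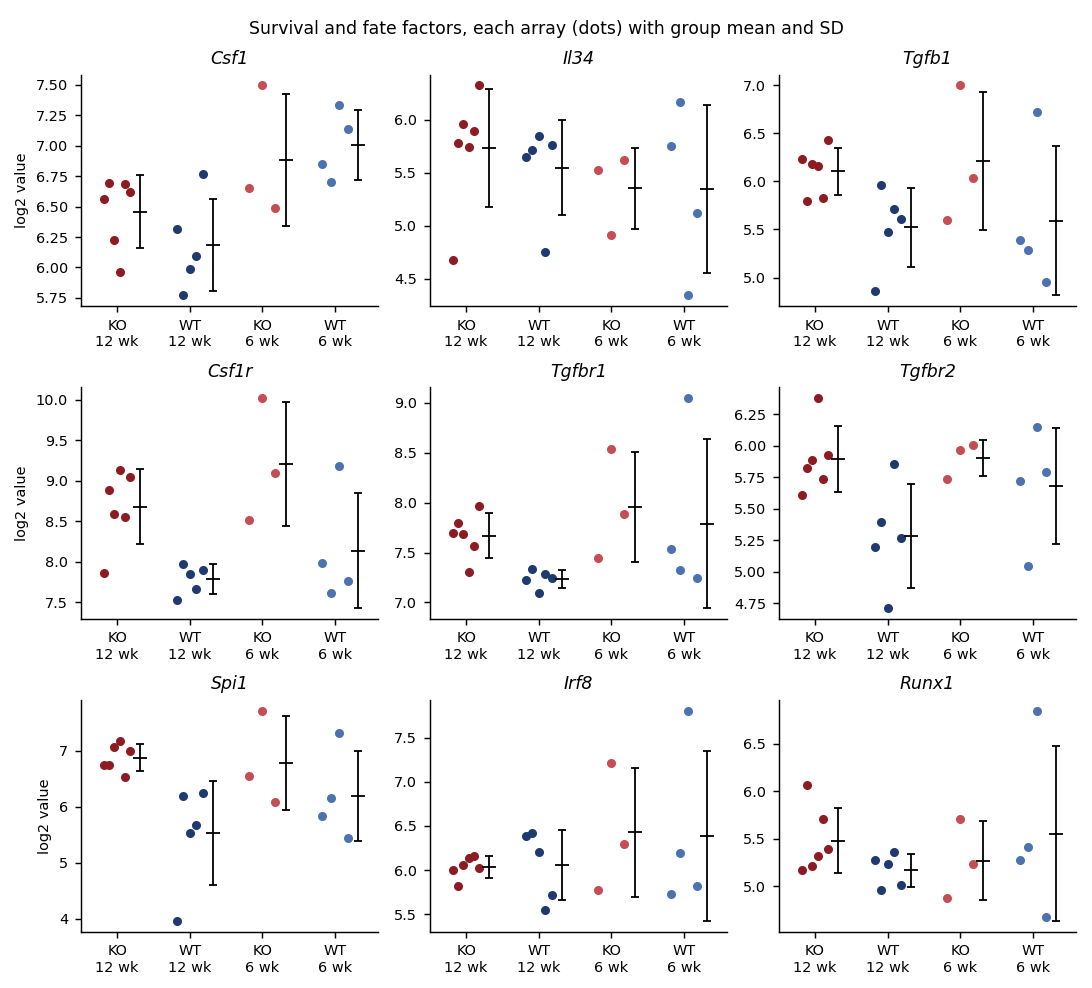
log2 value of each of the 9 genes (panels) in every array (dots; KO and WT at 12 weeks, then KO and WT at 6 weeks), with the group mean and SD beside the dots. Spi1 is the gene whose 12-week KO dots (6.52 or more) all lie above the WT dots (6.25 or less), while the Irf8 groups share the same range; vertical scales differ between panels.

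Of the ligands, Csf1 had a lower mean at 12 weeks than at 6 weeks in both genotypes, but neither difference passed the test. It ranged over 5.96 to 6.70 (median 6.59) in KO arrays of 12 weeks, against 6.32, 5.77, 5.99, 6.09 and 6.77 in WT arrays. At 6 weeks it was 6.65, 7.50 and 6.49 in KO arrays, against 6.85, 6.70, 7.34 and 7.14 in WT arrays. The genotypes overlapped at both stages, with KO minus WT differences of 0.27 ± 0.22 at 12 weeks (adjusted p = 0.674) and -0.13 ± 0.27 at 6 weeks (adjusted p = 0.999). The 14 probe sets of Csf1 disagreed. At 12 weeks 11 were higher and 3 lower in KO tissue, from -0.35 to 1.82, with the brightest at 0.15. At 6 weeks 6 were higher and 8 lower, from -0.82 to 0.59. Over the alternative settings, arrays left out singly aside, the 12-week Csf1 difference ran from -0.03 to 0.61. Between stages, Csf1 averaged 6.19 ± 0.38 in WT arrays of 12 weeks and 7.01 ± 0.29 in WT arrays of 6 weeks (SD, n = 5 and 4). The difference of -0.82 ± 0.24 had an adjusted p of 0.315, and it was -0.42 ± 0.25 in KO arrays (adjusted p = 0.726). The KO value was -0.11 without KO replicate 2 of 6 weeks. The 6-week and 12-week arrays also lie in separate blocks of the submission's listing, which cannot be told apart from stage. Mature oligodendrocyte markers were also lower at 12 weeks, with a median difference of -1.81 in WT (0 of 9 passed limma, 8 at an unadjusted p under 0.05) and -0.89 in KO (0 passed, 0 unadjusted). Oligodendrocyte precursor markers were lower too, with a median of -0.51 in WT and -0.33 in KO. Neuron markers were higher, with a median of 0.45 in WT and 0.57 in KO, and 0 genes of either list passed. The part of these markers in the Csf1 difference was not tested.

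Il34, the neuronal CSF1R ligand, did not separate the groups. It ranged over 4.68 to 6.33 (median 5.84) in KO arrays of 12 weeks, against 4.76 to 5.85 (median 5.71) in WT arrays, and over 4.92 to 5.62 in KO arrays of 6 weeks, against 4.34 to 6.17 in WT arrays. The averaged KO minus WT difference was 0.10 ± 0.25 (95% interval -0.43 to 0.62, adjusted p = 0.950). Its 9 probe sets were split: 7 were higher and 2 lower in KO tissue at 12 weeks, and 3 were higher and 6 lower at 6 weeks. The brightest one was higher in KO tissue at both stages, by 0.53 at 12 weeks and 0.62 at 6 weeks.

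Tgfb1, the ligand of the TGF-beta receptors, had a higher mean in KO tissue at both stages, but neither difference passed the test. It ranged over 5.80 to 6.43 (median 6.17) in KO arrays of 12 weeks, against 4.86, 5.96, 5.47, 5.71 and 5.61 in WT arrays. The 6-week values were 5.59, 7.00 and 6.03 in KO arrays, against 5.39, 5.29, 6.72 and 4.96 in WT arrays. The groups overlapped through 1 WT array at each stage. The difference was 0.58 ± 0.29 at 12 weeks (adjusted p = 0.467), 0.62 ± 0.36 at 6 weeks (adjusted p = 0.969) and 0.60 ± 0.23 averaged (1.52-fold, 95% interval 0.12 to 1.09, adjusted p = 0.391). The 6-week value was 0.23 without KO replicate 2 and 1.00 without WT replicate 3. At each stage 8 of its 9 probe sets were higher in KO tissue, and the brightest differed by 0.39 at 12 weeks and 1.07 at 6 weeks.

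Csf1r, the survival receptor, and Spi1 had the largest averaged differences of the 9 genes, 0.98 and 0.97, and with the brightest probe set alone they were 0.74 and 0.87. It ranged over 7.86 to 9.13 (median 8.74) in KO arrays of 12 weeks, against 7.53, 7.97, 7.85, 7.67 and 7.90 in WT arrays. At 6 weeks it was 8.51, 10.02 and 9.09 in KO arrays, against 7.98, 7.62, 9.18 and 7.77 in WT arrays. At 12 weeks 5 of 6 KO arrays lay above every WT array, and KO replicate 1 lay within the WT range. At 6 weeks WT replicate 3 reached above 2 of the 3 KO arrays. The difference was 0.89 ± 0.29 at 12 weeks (adjusted p = 0.232), 1.07 ± 0.37 at 6 weeks (adjusted p = 0.695) and 0.98 ± 0.23 averaged, a 1.98-fold higher level (95% interval 0.49 to 1.47, adjusted p = 0.0621). It was 0.67 at 6 weeks without KO replicate 2. With only the 6-week groups in the model, its SE at 6 weeks was 0.45. Without the pair of 6-week arrays that stood apart, Csf1r passed at 12 weeks (limma adjusted p = 0.0462) and averaged (adjusted p = 0.0266). The 12-week difference itself stayed at 0.89. Its SE fell from 0.29 to 0.21, since the model estimates the spread of a gene over all 4 groups. That pair was chosen after seeing the data, partly by its Csf1r values, so these passes are no separate support. With KO replicate 2 and WT replicate 4 of 6 weeks left out, a planned setting, 0 members passed at 12 weeks or averaged. Csf1r was then 0.54 at 6 weeks.

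Nearly all probe sets of Csf1r had the same direction. RefSeq also lists a pseudogene of Csf1r, and whether any of these probe sets read it was not tested. At 12 weeks 22 of 23 were higher in KO tissue, by up to 1.44, with the other at -0.18, and at 6 weeks all 23 were higher, by 0.02 to 2.11. The brightest of them differed by 0.88 at 12 weeks and 0.59 at 6 weeks. Within the submission's listing the 12-week arrays fall into a first run (KO replicates 1 to 3, WT replicates 1 and 2) and a second run. The Csf1r difference was 0.70 in the first and 1.10 in the second run. Differences of Tgfb1 (0.66 and 0.54), Tgfbr1 (0.45 and 0.40), Tgfbr2 (0.48 and 0.74), Csf1 (0.45 and 0.14) and Runx1 (0.36 and 0.27) had 1 sign in both runs, and those of Irf8 (-0.44 and 0.28) and Il34 (-0.21 and 0.53) did not.

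Tgfbr1, the signalling receptor, was 7.30 to 7.97 (median 7.69) in KO arrays of 12 weeks, against 7.22, 7.33, 7.10, 7.28 and 7.25 in WT arrays. At 6 weeks it was 7.45, 8.54 and 7.89 in KO arrays, against 7.53, 7.33, 9.05 and 7.25 in WT arrays. At 12 weeks 5 of 6 KO arrays lay above every WT array, and at 6 weeks the highest value of all was in a WT array. The difference was 0.43 ± 0.26 at 12 weeks (adjusted p = 0.564) and 0.17 ± 0.33 at 6 weeks (adjusted p = 0.999), where it ran from -0.12 to 0.59 with 1 array left out. All 13 probe sets were higher in KO tissue at 12 weeks and 11 at 6 weeks.

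Tgfbr2, the ligand-binding receptor whose promoter window is printed above, ranged over 5.61 to 6.38 (median 5.86) in KO arrays of 12 weeks, against 5.19, 5.39, 4.71, 5.85 and 5.27 in WT arrays. The 6-week values were 5.74, 5.97 and 6.00 in KO arrays, against 5.72, 5.05, 6.15 and 5.79 in WT arrays. At 12 weeks 1 WT array reached into the KO range, and at 6 weeks the groups shared their range. The difference was 0.61 ± 0.21 at 12 weeks (95% interval 0.17 to 1.05, adjusted p = 0.263) and 0.22 ± 0.26 at 6 weeks (adjusted p = 0.999), where it ran from 0.01 to 0.38 with 1 array left out. At 12 weeks 9 of its 10 probe sets were higher in KO tissue, but the brightest one differed by -0.10.

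**Figure D2:**
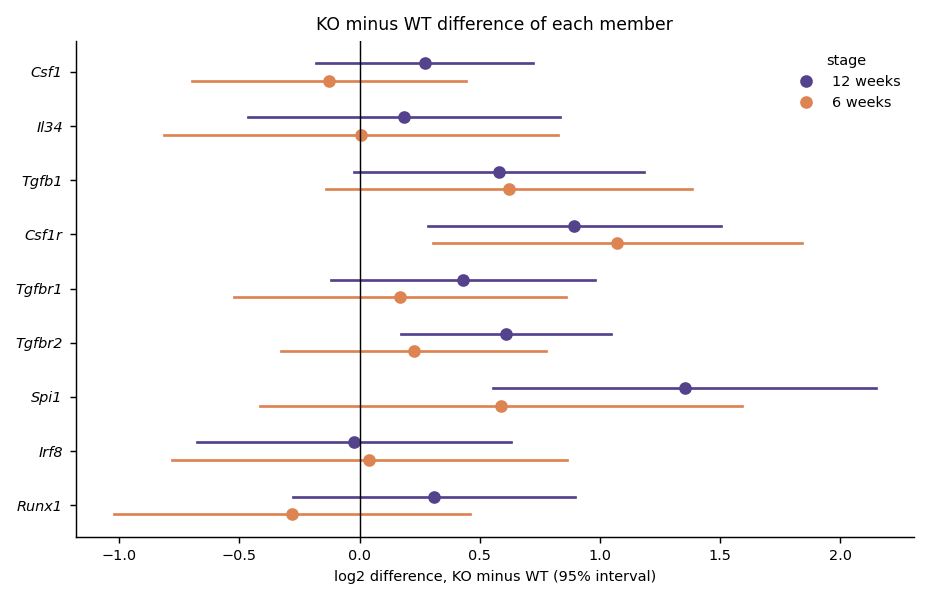
KO minus WT log2 difference of each gene (dots) with its 95% interval from limma (lines), at 12 weeks above and at 6 weeks below. The intervals of Csf1r at both stages and of Tgfbr2 and Spi1 at 12 weeks lie above 0 before adjustment over all genes, and those of Irf8 and Il34 are centred near 0.

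Among the transcription factors, the KO minus WT difference was largest for Spi1 and near 0 for Irf8 at 12 weeks. Spi1 was 6.75, 6.75, 7.06, 7.18, 6.52 and 6.99 in KO arrays of 12 weeks, against 3.96, 6.19, 5.54, 5.68 and 6.25 in WT arrays. Every KO array lay above every WT array, as for 1.70% of all genes at this stage, and no other member did so. At 6 weeks, where 2.72% of genes and 0 members had every KO array above every WT array, Spi1 was 6.55, 7.71 and 6.08 in KO arrays, against 5.84, 6.16, 7.32 and 5.44 in WT arrays. The difference was 1.35 ± 0.38 at 12 weeks (2.55-fold, 95% interval 0.56 to 2.15, adjusted p = 0.149) and 0.59 ± 0.48 at 6 weeks (adjusted p = 0.999). The 6-week value was 0.12 without KO replicate 2 and 0.97 without WT replicate 3. At 12 weeks it was 1.78 in the first and 1.08 in the second run of the listing, and 0.96 without WT replicate 1, the lowest array. All 4 of its probe sets were higher in KO tissue at both stages.

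Irf8 was 6.01, 5.82, 6.05, 6.14, 6.16 and 6.02 in KO arrays of 12 weeks, against 6.39, 6.42, 6.21, 5.55 and 5.72 in WT arrays. The KO arrays lay inside the WT range. The 6-week values were 5.78, 7.21 and 6.29 in KO arrays, against 5.73, 6.20, 7.80 and 5.82 in WT arrays. The difference was -0.02 ± 0.31 at 12 weeks (95% interval -0.68 to 0.63, adjusted p = 0.985) and 0.04 ± 0.39 at 6 weeks (adjusted p = 0.999). The intervals do not show that the level is the same in both genotypes. At 12 weeks 7 of its 11 probe sets were higher and 4 lower in KO tissue, and at 6 weeks 6 were higher and 5 lower.

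Runx1 ranged over 5.18 to 6.06 (median 5.36) in KO arrays of 12 weeks, against 4.96 to 5.36 (median 5.23) in WT arrays, and over 4.88 to 5.70 in KO arrays of 6 weeks, against 4.68 to 6.85 in WT arrays. The difference was 0.31 ± 0.28 at 12 weeks (adjusted p = 0.712), -0.28 ± 0.36 at 6 weeks (adjusted p = 0.999) and 0.01 ± 0.23 averaged. Its groups overlapped at both stages, and 11 of 12 probe sets were higher in KO tissue at 12 weeks, against 6 at 6 weeks.

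**Figure D3:**
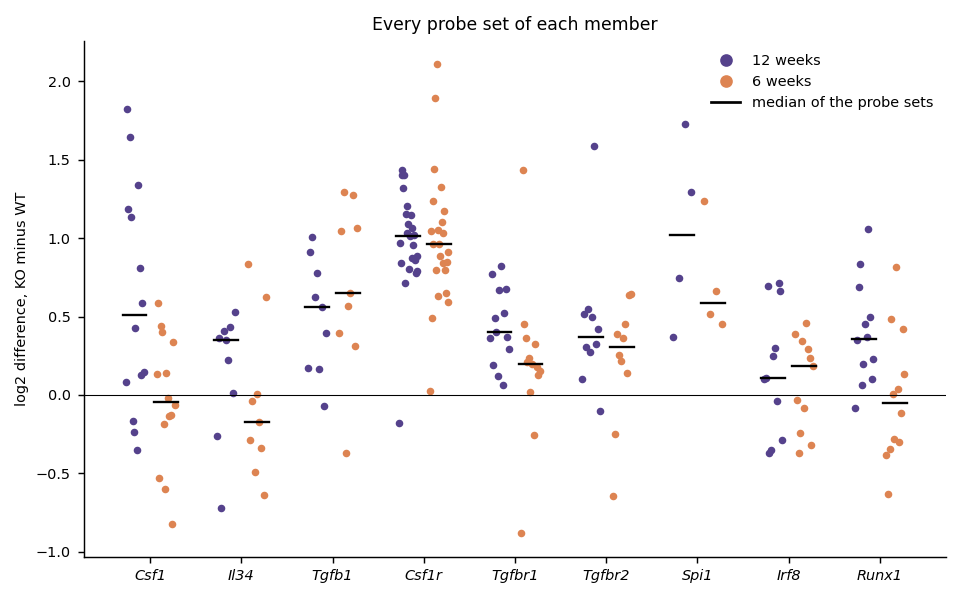
KO minus WT log2 difference of every probe set (dots) of each gene, at 12 weeks (left) and 6 weeks (right), with the median of the probe sets as a bar. All 4 probe sets of Spi1 and all but 1 of the 23 of Csf1r at 12 weeks lie above 0. Those of Irf8, Il34 and Csf1 at both stages, and of Runx1 at 6 weeks, are split between both sides. Tgfb1, Tgfbr1 and Tgfbr2 have 0 to 2 probe sets below 0 at each stage, and Runx1 has 1 at 12 weeks.

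Stage and its interaction with genotype moved no member past the test. All 6-week arrays form a block of the submission's listing apart from both 12-week runs. A difference between stages therefore cannot be told apart from one between listing blocks. For 12 against 6 weeks, 0 of 9 members passed in WT, where 0.0184% of genes did, and 0 of 9 in KO, where 0.00613% did. At an unadjusted p under 0.05 the counts were 1 (Csf1) in WT, where 8.48% of genes reached it, and 0 in KO, where 7.50% did. The median 12 minus 6 weeks difference of the members was -0.38 in WT and -0.10 in KO, beside 0.01 and 0.02 over all genes. Spi1 differed by -0.67 ± 0.42 in WT (adjusted p = 0.681) and by 0.10 ± 0.45 in KO (adjusted p = 0.978). The interaction, tested for every gene, called 0 genes (0.00%), with 849 genes and 0 members at an unadjusted p under 0.05. It was 0.76 ± 0.61 for Spi1 and 0.59 ± 0.45 for Runx1 (adjusted p = 0.963 for both), so no difference between the stages in the KO effect was detectable for any member.

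The order of the group means differed between genes. For Csf1r it was 9.21 ± 0.76 in KO at 6 weeks, 8.68 ± 0.46 in KO at 12 weeks, 8.14 ± 0.71 in WT at 6 weeks and 7.78 ± 0.18 in WT at 12 weeks (SD, n = 3, 6, 4 and 5). Neighbours in that order differed by less than the larger of their SDs. For Spi1 it was 6.88 ± 0.24 in KO at 12 weeks, 6.78 ± 0.84 in KO at 6 weeks, 6.19 ± 0.81 in WT at 6 weeks and 5.52 ± 0.93 in WT at 12 weeks. For Csf1 both 6-week groups came before both 12-week groups.

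Genes around the members were read from lists, given as counts passing the averaged KO against WT comparison. Of 25 measured genes of CSF1R signalling and survival, 0 passed (limma; 7 at an unadjusted p under 0.05), and their median difference was 0.16. The 4 with the smallest p were Inpp5d, the SHIP1 phosphatase (1.02, adjusted p = 0.0639), Fcer1g, an ITAM adaptor (0.97, adjusted p = 0.126), Tyrobp, the DAP12 adaptor that TREM2 and CSF1R both use (0.53, adjusted p = 0.165), and Ptprz1, a receptor phosphatase that binds IL-34 (0.49, adjusted p = 0.0893). Of 13 genes for TGF-beta ligands, activation and receptors, 0 passed (1 unadjusted), with a median of 0.13. They include Ltbp3, which holds latent TGF-beta in the matrix (0.43), and Nrros, which presents it on microglia (0.33). Of 13 SMAD pathway genes 0 passed (1 unadjusted), with a median of 0.14 and 4 differences below 0. The receptor-activated Smad2, Smad3, Smad1 and Smad5 differed by 0.13, 0.17, 0.41 and 0.37, and Bambi by -0.17.

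Genes that depend on TGF-beta in microglia did pass. Of 14 measured, 10 rose and 0 fell in the averaged comparison, with a median difference of 1.28, and 7 rose at 12 weeks and 3 at 6 weeks. The purinergic receptor P2ry12 was 2.17 higher, P2ry13 1.95, the sialic acid receptor Siglech 2.34 and the orphan receptor Gpr34 1.80. Of 25 partner and myeloid transcription factors, 1 rose, Maf (0.86 ± 0.15, adjusted p = 0.00749), with a median of 0.24. Fli1, an ETS factor, differed by 0.78 (adjusted p = 0.275), and Bhlhe41 by 0.58 (adjusted p = 0.325).

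**Figure D4:**
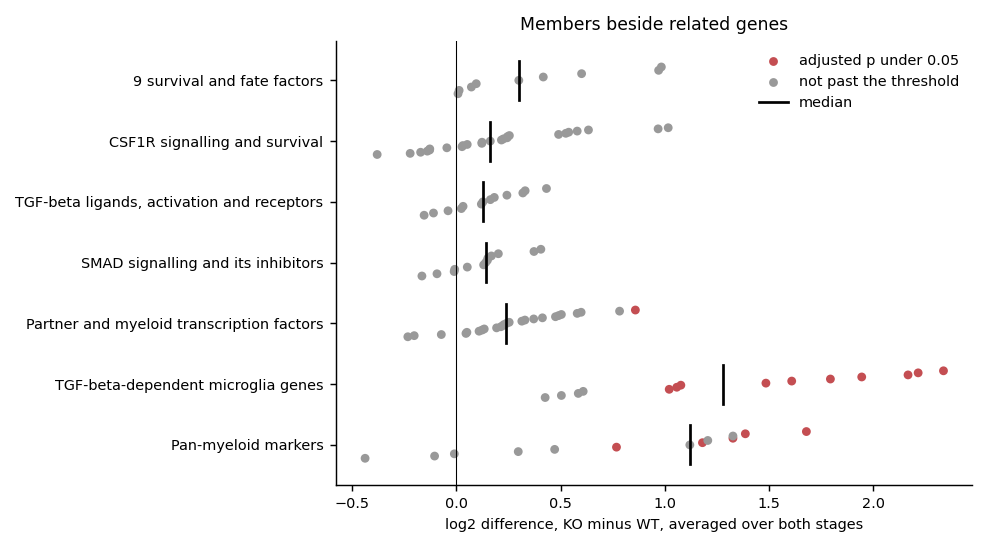
KO minus WT log2 difference averaged over both stages for each measured gene (dots) of the 9 survival and fate factors and of 6 lists, with the median as a bar and genes of adjusted p under 0.05 in red. No red dot lies among the 9 genes, whose median is 0.30, while 10 of 14 TGF-beta-dependent microglia genes (median 1.28) and 5 of 13 pan-myeloid markers (median 1.12) are red.

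Some markers of myeloid cells as a whole rose in KO tissue as well. In this bulk tissue, a larger number of microglia and more RNA of a gene per cell cannot be told apart. Of 13 measured pan-myeloid markers 5 rose in the averaged comparison (Aif1, Itgam, Laptm5, Ctss and Cd33; median of the list 1.12), with Itgam 1.68 higher, and 3 rose at 12 weeks. The averaged difference was below 0 for 3 of the 13, at -0.44 for Ptprc (CD45, adjusted p = 0.711), -0.10 for Cd14 and -0.01 for Coro1a. Their score, the average over markers of each log2 value minus that marker's mean over the arrays, ran over -0.12 to 0.63 in KO arrays of 12 weeks, against -0.79 to -0.20 in WT arrays, and over -0.02 to 1.35 in KO arrays of 6 weeks, against -0.96 to 0.74 in WT arrays. The 2 arrays that stood apart had the highest scores of their groups, 1.35 and 0.74. Of the other marker lists, 2 of 10 astrocyte markers rose (Slc1a2 and Slc4a4, median of the list 0.46), and 2 of 8 monocyte and border macrophage markers (Mrc1 and Stab1, median 0.49). No gene passed among 11 neuron (median -0.17), 9 mature oligodendrocyte (-0.25), 8 oligodendrocyte precursor (-0.13), 8 endothelial (0.29), 5 lymphocyte (0.20), 9 choroid plexus and ependyma (0.36) or 7 cell cycle (-0.04) markers, with 0 to 2 in each at an unadjusted p under 0.05. The choroid plexus and ependyma list had a median of 0.95 at 12 weeks and -0.38 at 6 weeks. Its score, formed in the same way, was highest in WT replicate 4 of 6 weeks, at 2.54. Ccr2 and Cd163 were below the filter. With the pan-myeloid score as a covariate, the Csf1r difference was 0.09 at 12 weeks and 0.22 averaged, and that of Spi1 0.42 and 0.09. The part of the astrocyte, macrophage and choroid plexus markers in the members' differences was not tested.

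The members were also taken relative to the pan-myeloid score of the same array. The KO minus WT difference of Csf1r beyond that of the score was 0.07 at 12 weeks, 0.33 at 6 weeks and 0.20 ± 0.25 averaged, and that of Spi1 was 0.53, -0.16 and 0.18. Tgfb1 lay at -0.18 averaged, Tgfbr2 at -0.37 and Tgfbr1 at -0.49. Irf8 lay at -0.78 ± 0.27 (95% interval -1.31 to -0.24), Runx1 at -0.77, Csf1 at -0.71 and Il34 at -0.69, close to the median of all genes tested, which was -0.78. These values are descriptions, since the score moves with genotype itself.

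**Figure D5:**
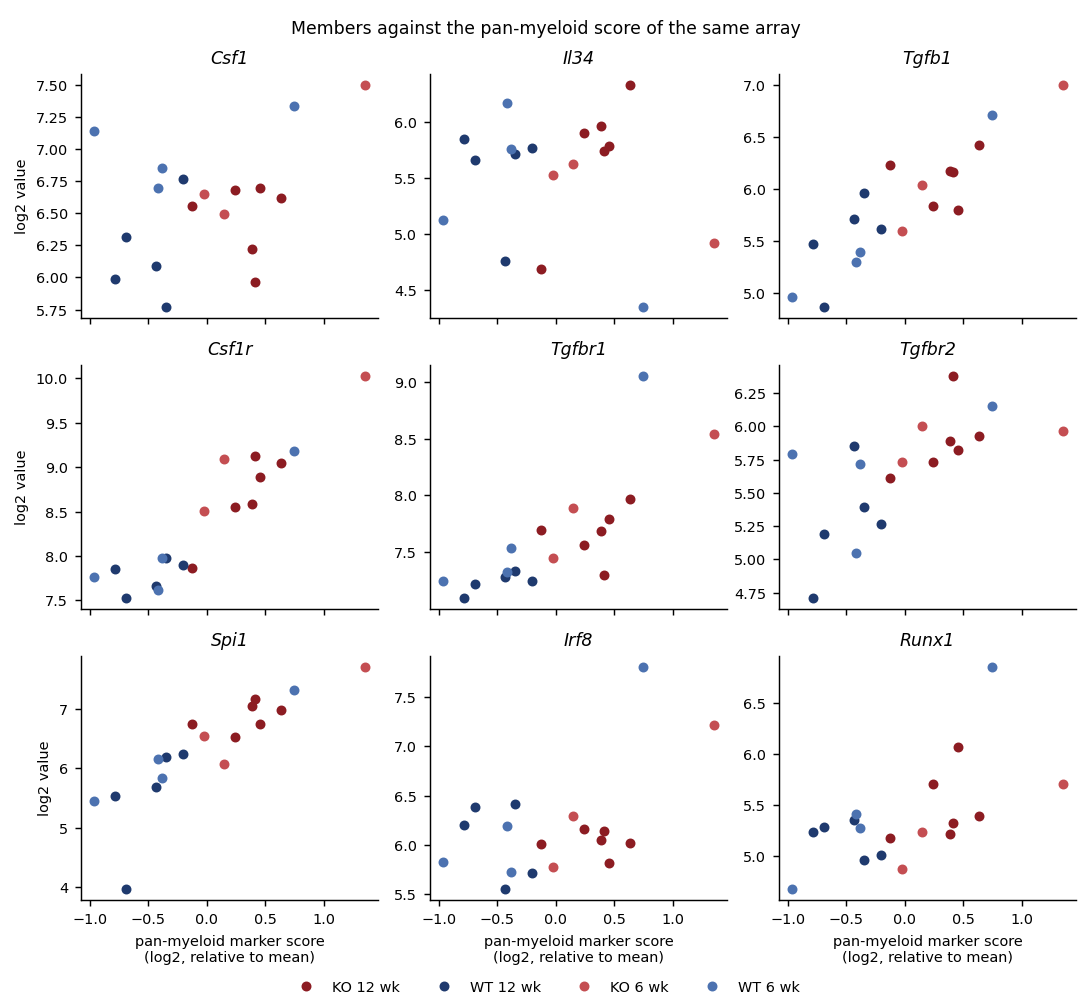
log2 value of each gene against the pan-myeloid marker score of the same array (18 dots a panel, by group). Csf1r, Tgfbr1, Tgfb1, Runx1 and Spi1 rise with the score within groups (r = 0.887, 0.853, 0.851, 0.761 and 0.758). The high Irf8 values (7.21 in KO and 7.80 in WT) belong to the 2 arrays with the highest scores (1.35 and 0.74). Il34 does not follow the score.

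Within the groups, several members varied from array to array with marker scores of more than 1 cell type. Deviations from group means were compared over 18 arrays for 9 members and 15 lists, with permutation p-values from shuffles within groups, adjusted over all 135 relations, of which 16 passed 0.05. Csf1r gave r = 0.887 with the pan-myeloid score (permutation p = 0.00059, adjusted p = 0.0322, rho = 0.860, permutation p = 0.00019) and r = 0.757 without the 2 farthest arrays. With the astrocyte score it gave nearly the same, r = 0.886 (permutation p = 0.00191, adjusted p = 0.0322, rho = 0.814, permutation p = 0.00161) and r = 0.778 without the 2. Csf1r also passed with the cell cycle score (r = 0.638, adjusted permutation p = 0.0322) and the SMAD list (r = 0.670, adjusted permutation p = 0.0436). It passed as well with the lists of CSF1R signalling, TGF-beta-dependent microglia genes and partner transcription factors (r = 0.893, 0.888 and 0.845). These relations are therefore not particular to myeloid markers.

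Tgfb1 also followed both scores, with r = 0.851 for pan-myeloid (permutation p = 0.00355, adjusted p = 0.0436, rho = 0.709, permutation p = 0.00774) and r = 0.786 for astrocyte markers (permutation p = 0.0056, adjusted p = 0.0472, rho = 0.680, permutation p = 0.00976). Without the 2 farthest arrays r was 0.652 and 0.568. Tgfbr1 passed with the pan-myeloid score (r = 0.853, permutation p = 0.00533, adjusted p = 0.0472, rho = 0.759, permutation p = 0.00525, and r = 0.652 without the 2) and not with the astrocyte score (r = 0.793, adjusted permutation p = 0.0585). Spi1 passed with the pan-myeloid score (r = 0.758, permutation p = 0.00184, adjusted p = 0.0322, rho = 0.785, permutation p = 0.0021, and r = 0.597 without the 2) and not with the astrocyte score (r = 0.607, adjusted permutation p = 0.0840). Whether the pan-myeloid and astrocyte relations differ was not tested. Runx1 (r = 0.761, adjusted permutation p = 0.0735) and Irf8 (r = 0.725, adjusted permutation p = 0.179) did not pass with the pan-myeloid score, and r for Irf8 was 0.300 without the 2 arrays.

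Csf1 followed mature oligodendrocyte markers and, inversely, neuron markers. With the oligodendrocyte score r was 0.704 (permutation p = 0.00401, adjusted p = 0.0451, rho = 0.732, permutation p = 0.0032) and 0.729 without the 2 farthest arrays. With the neuron score r was -0.685 (permutation p = 0.00551, adjusted p = 0.0472, rho = -0.717, permutation p = 0.0031) and -0.617 without the 2. Its r with oligodendrocyte precursor markers was 0.618 (adjusted permutation p = 0.0619). Tgfbr2 and Il34 passed with no list. All values of an array share its RNA and its composition.

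The genes whose deviations were most like each member's, over 18 arrays and all genes tested, are given as a description. For Csf1r they were Fam107a, Cyp4v3 and Rap1b (r = 0.958, 0.945 and 0.932), and for Tgfb1 they were Cx3cr1, Nckap1l and Fcrls (0.898, 0.894 and 0.883), of which Cx3cr1 and Fcrls are microglial receptors. Tgfbr1 and Runx1 shared Lcp2, a signalling adaptor of blood cells (0.930 and 0.851), and S100a10 (0.884 and 0.909). For Spi1 they were Commd10, Ppp2ca and Cybb (0.909, 0.883 and 0.873), the last a subunit of the phagocyte oxidase. For Irf8 they were Prss23, Stat3 and Prdx6 (0.916, 0.881 and 0.867). The closest gene was Cdc37l1 for Csf1 (0.861), Lor for Il34 (0.823) and Tlr9 for Tgfbr2 (0.850). Among the members themselves, the closest were Tgfb1 with Spi1 (0.853) and with Tgfbr1 (0.844), and Il34 correlated negatively with all the other 8 (-0.51 to -0.18).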

How the data were processed

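RNA from the caudal corpus callosum was prepared, per the labels' protocols, with an RNeasy mini kit and NuGen WT-Ovation Pico amplification and biotin label, and run on 18 arrays of 1 colour. The authors deposited 1 log2 value for each of 241576 probe sets in each array (0.732 to 13.7). Background correction, normalization and summary of probes are not given in the sources used here. The values were used unchanged, since the arrays' medians lay between 5.26 and 5.41. Array background is unknown, so no gene is called detected, and the number of arrays limits the precision.

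Of the probe sets, 212097 had 1 gene symbol in the platform annotation, 4475 had several and 25004 had none. Only the first kind was used. Symbols were updated for 2688 genes through a RefSeq table (GRCm38.p6), and 107 of 20406 were not current in it. The 20% of genes with the lowest mean (log2 3.41 or less) were left out. One limma model (3.58.1, R 4.3.3) with 4 group means gave all comparisons, two-sided, with Benjamini-Hochberg adjustment over 16324 genes, 14 residual and 5.61 prior degrees of freedom. The fit was tested on simulated data with independent normal noise. Of 100 genes given a log2 difference of 1, 35 passed at 6 weeks, 70 at 12 weeks and 81 averaged. Of 100 given a difference of 2, 95, 97 and 99 passed. False calls were 5, 10 and 10. A member with a difference near 1 could therefore miss the threshold, above all at 6 weeks. These rates need not hold for real arrays, where genes vary together. Replicate numbers were not used as pairs: same-numbered samples correlated by -0.36 to 0.24 over 22 pairs, 3 of them over 0.1. Correlations used 100000 permutations within groups.

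The members and gene lists were chosen with earlier results of these data known, and the lists get no test. Named genes are the 9 members, Trem2, up to 4 genes of each pathway list and 3 of each marker list with the smallest averaged p, and the 3 genes nearest each member. Some genes fall outside that rule and were named after their values were seen. They are Aif1, Ctss, Ptprc, Cd14 and Coro1a, which complete counts of the pan-myeloid list, Smad2 and Smad3, and Ccr2 and Cd163, below the filter. Alternatives covered filters, normalization, probe-set summary, limma options, array weights, blocks, covariates and left-out arrays. Python 3.11.15 and matplotlib 3.10.9 drew the figures.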

Additional observations from a re-analysis of the deposited data

Results flagged for a closer look

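In 27 groups of 4 to 6 arrays (9 genes, 3 groups each), 3 had an array far from the others by Dixon's 95% critical value, and chance gives about 1 in 20 groups. Il34 was low in KO replicate 1 of 12 weeks, at 4.68, where the next array was at 5.74 and the highest at 6.33. Il34 was also low in WT replicate 4 of 12 weeks, at 4.76, where the other arrays lay between 5.65 and 5.85. Tgfbr1 was high in WT replicate 3 of 6 weeks, at 9.05, where the next array was at 7.53 and the lowest at 7.25.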

How the results depend on the processing

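Up to 36 alternative settings were tried, 33 to 36 for each comparison. At 6 weeks, between stages and for the interaction, 0 members passed under every one. At 12 weeks 1 member passed with only the groups compared (Csf1r, adjusted p = 0.0483), and 2 passed with KO replicate 2 and WT replicate 3 of 6 weeks left out together, chosen after seeing the data (Csf1r, 0.0462, and Spi1, 0.0454). Averaged over stages, 1 member, Csf1r, passed with the mean of probe sets (adjusted p = 0.0233), with trend and robust options (0.0424), at a threshold of 0.1 and without those 2 arrays (0.0266). Leaving out 1 replicate gave 0 to 1 members, the 1 being Csf1r without KO replicate 1 of 12 weeks (1.07, adjusted p = 0.0288), KO replicate 1 of 6 weeks (1.16, 0.0188) or WT replicate 3 of 6 weeks (1.16, 0.00815). The KO minus WT difference of Csf1r kept its sign under all settings, with averaged adjusted p of 0.00815 to 0.969. The cause was not tested.

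With the pan-myeloid score as a covariate, differences turned to -0.0329 for Csf1 at 12 weeks, -0.18, -0.0692 and -0.13 for Tgfb1 at 12 weeks, 6 weeks and averaged, -0.25 and -0.35 for Tgfbr1 at 12 weeks and averaged, -0.25 for Spi1 at 6 weeks and -0.35 for Runx1 at 12 weeks. There Csf1r was at 0.09 at 12 weeks and 0.22 averaged. With the brightest probe set, Tgfbr2 turned to -0.10 at 12 weeks and -0.74 for the interaction. Spi1 turned to -0.13 at 6 weeks without KO replicate 2 and WT replicate 4, and Runx1 for 12 against 6 weeks in WT to 0.0471 without WT replicate 3 of 6 weeks, alone or with KO replicate 2. Over all replicates left out singly that value ran from -0.676 to 0.0471. Sign changes are not counted for values smaller than their own SE that did not pass. With replicate number as a block, 0 members passed in any comparison, and Csf1r averaged 0.95 (adjusted p = 0.119).

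Genes called over the array ranged more widely: 5 to 239 at 12 weeks against 72, 0 to 26 at 6 weeks against 7, 44 to 187 averaged against 110, 0 to 9 between stages in WT against 3, and 0 to 5 in KO against 1. Using only the groups compared gives no averaged or interaction value. Groups of 3 to 6 arrays and unknown background limit what small differences can show.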
